A study of Mus musculus with 77 samples.

Results

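The corticosteroid receptors and the genes that answer to glucocorticoids were described in a forebrain region, the bed nucleus of stria terminalis (BNST), and in blood of mice after chronic social defeat stress (CSDS). The set held 10 genes chosen by symbol, and all 10 were measured in both mRNA tables, among 16587 genes of the BNST and 13084 genes of the blood (18308 genes in all). They were the receptor genes Nr3c1 and Nr3c2, the enzyme gene Hsd11b1 and the target genes Fkbp5, Tsc22d3, Per1, Sgk1, Zbtb16, Dusp1 and Klf9. Male mice of the inbred strains C57BL/6Crl (B6) and DBA/2Crl (D2), as labelled, were 8 weeks old. The study writes these strains as C57BL/6NCrl and DBA/2NCrl. Defeated mice were confronted daily by an aggressor, and controls were housed beside an unfamiliar neighbour behind a perforated divider without physical contact. Defeated mice whose social interaction ratio fell below that of most controls of their strain were susceptible, and the others were resilient. For sequencing, the study picked the extremes: resilient mice with the highest ratios, susceptible mice with the lowest, and controls nearest their mean. For the BNST, mRNA bound to the Argonaute protein AGO2 was immunoprecipitated from pools of 3 BNST of B6 mice, giving 5 control, 5 resilient and 4 susceptible pools. For the blood, total RNA depleted of ribosomal and globin transcripts was sequenced from 5 control, 5 resilient and 5 susceptible B6 mice and from 5 control and 5 susceptible D2 mice, and all tissue was taken 6 to 8 days after the last defeat. The study's timeline places a social avoidance test and then a forced swim test between the last defeat and tissue collection, also for controls. D2 mice had no resilient blood group, and the BNST pools came from a separate set of mice.

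Corticosterone, the main glucocorticoid of the mouse, binds the mineralocorticoid receptor (Nr3c2) with high affinity and the glucocorticoid receptor (Nr3c1) when its level rises with stress or at the daily peak. The bound receptor moves to the nucleus and acts at glucocorticoid response elements, and its targets include Fkbp5, a co-chaperone that lowers the receptor's affinity for hormone. In the BNST, a relay between the amygdala, the hippocampus and the hypothalamus, these receptors take part in the control of the stress axis, and in blood they act on leukocytes.

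The BNST libraries held 3701280 to 10659900 reads in genes, and the blood libraries 9751600 to 15878500. Resilient pool 3, the deepest BNST library, gave the highest or lowest value of 5 of the 10 genes across all pools, and no other pool did so for more than 3. All 5 markers of neurons, of astrocytes, of oligodendrocytes, of microglia, of endothelial cells and of choroid plexus were measured in every pool. The summed level of the choroid plexus markers was 32.9 to 187.5 CPM (reads scaled to a common library size) in control, 23.2 to 137.4 in resilient and 12.3 to 60.4 in susceptible pools. For the neuron markers it was 1654 to 1924, 1489 to 1709 and 1213 to 1615 CPM, in the same order. For the astrocyte markers it was 1364 to 1616, 1238 to 1421 and 1028 to 1303 CPM. The oligodendrocyte and astrocyte lists did not move one way: Mag was called higher in resilient (0.49) and susceptible (0.44) and Cldn11 lower in both (-0.34 and -0.46), and in susceptible pools Slc1a2 (-0.42) and Slc1a3 (-0.32) were called lower and Aldh1l1 higher (0.37). In the susceptible pools 4 of 5 neuron markers and all 5 choroid plexus markers were called lower than control, as were 9.28% of all genes. By the criteria for a call given below, 17.7% of all genes were called in resilient and 18.9% in susceptible pools against control. The part of these cell types in the results on the 10 genes was not tested. In blood, 2 D2 mice carry a group label that differs from the letter ending their column name in the deposited values, 1 labelled control and 1 labelled susceptible. That column name is called the sample name here. Groups by label were used here, so these 2 mice stand in the groups their sample names contradict. The D2 values of named members are also given with the groups by sample name and without both mice, while values of other genes and cell markers in D2 are by label only.

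Sequences were chosen to show the promoters of genes whose levels are described below and the sites of a miRNA family in a receptor transcript. Promoters were taken from RefSeq on GRCm38.p6 as 250 bases before to 50 bases after a transcription start, and 8 of the 10 genes matched, with 16 promoters. They were searched on both strands for the glucocorticoid response element (AGAACA, then 3 bases of any kind, then TGTTCT) and its single arm AGAACA, the cAMP response element TGACGTCA and its core TGACG, and the E-box CACGTG. An arm counts again inside a full glucocorticoid element and a core inside a full cAMP element. Capitals mark every match in the 3 promoters printed here.
Sgk1, chr10:21993640-21993939, plus strand: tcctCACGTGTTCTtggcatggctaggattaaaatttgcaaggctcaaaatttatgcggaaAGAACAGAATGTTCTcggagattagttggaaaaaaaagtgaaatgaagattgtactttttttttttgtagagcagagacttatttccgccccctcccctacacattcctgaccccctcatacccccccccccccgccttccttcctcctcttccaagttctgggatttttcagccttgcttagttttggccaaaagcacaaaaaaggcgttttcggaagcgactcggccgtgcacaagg
Dusp1, chr17:26508423-26508722, minus strand: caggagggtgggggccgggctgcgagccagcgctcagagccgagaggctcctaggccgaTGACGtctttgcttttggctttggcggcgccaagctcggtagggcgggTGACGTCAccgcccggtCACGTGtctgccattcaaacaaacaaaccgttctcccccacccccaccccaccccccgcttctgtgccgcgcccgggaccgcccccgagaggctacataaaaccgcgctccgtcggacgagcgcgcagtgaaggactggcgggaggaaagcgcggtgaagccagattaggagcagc
Klf9, chr19:23140976-23141275, plus strand: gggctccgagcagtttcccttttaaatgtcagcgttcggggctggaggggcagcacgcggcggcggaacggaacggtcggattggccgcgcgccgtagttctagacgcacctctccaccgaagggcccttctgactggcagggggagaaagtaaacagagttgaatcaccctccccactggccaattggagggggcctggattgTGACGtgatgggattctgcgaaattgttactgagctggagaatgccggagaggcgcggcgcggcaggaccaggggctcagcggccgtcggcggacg

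The full glucocorticoid element occurred in this 1 promoter of Sgk1, 189 bases before its start, and in 0.00913% of 32851 mouse promoters of the same length. The same promoter held an E-box 246 bases before the start that overlaps a further single arm at 242 bases, apart from the full element. The Dusp1 promoter held the full cAMP element 143 bases before the start, which 1.79% of all promoters hold, and an E-box 126 bases before it. The Klf9 promoter held only the core TGACG, 46 bases before the start, as do 20.8% of all promoters. The E-box was found in 4 of the 16 promoters, 1 each of Fkbp5, Per1, Sgk1 and Dusp1, beside 7.15% of all promoters. The arm AGAACA was found in 4 of the 16, of Sgk1 and Tsc22d3, beside 19% of all. These are matches of letters in a window and not sites shown to be bound.

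The miR-135 family and miR-18a were chosen because the seeds of miR-135a and miR-18a match the receptor transcripts. The sequence of miR-135b was not searched here. The mature sequences are printed from RefSeq with the seed, bases 2 to 8, in capitals, and the Nr3c2 sites with the match to the seed in capitals.
mmu-miR-135a-5p: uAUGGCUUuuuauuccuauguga
mmu-miR-18a-5p: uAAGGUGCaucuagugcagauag
Nr3c2 site 1, chr8:77242783-77242805, plus strand: tggatgaaAAGCCATatctagtc
Nr3c2 site 2, chr8:77244755-77244777, plus strand: aaacagcaAAGCCATattctcta

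The 3′ untranslated region of Nr3c2, 2482 bases on GRCm38, held 2 matches to the miR-135a seed, AAGCCAT, and 16.6% of 13896 such regions held at least 1. None of the other 9 genes held one. The region of Nr3c1, 3937 bases, held 1 match to the miR-18a seed, as did 10.5% of all regions. In the AGO2-bound miRNA of 5 control, 5 resilient and 3 susceptible BNST pools, miR-135b-5p was the best measured of these miRNAs. Its level was 3.76 to 4.87 log2 CPM in control, 4.42 to 4.91 in resilient and 4.21 to 4.66 in susceptible pools, and the groups overlapped. The resilient minus control difference was 0.36 (SE 0.22, adjusted p = 0.557) and the susceptible minus control difference 0.22 (SE 0.25, adjusted p = 0.982) on the log2 scale. For miR-135a-5p, 2 entries were measured and neither was called. Their differences from control were 0.24 (SE 1.35) and 0.85 (SE 0.97) in resilient pools. In susceptible pools they were -1.21 (SE 1.56) and -0.56 (SE 1.12). miR-18a-5p rested on 0 to 34 reads per pool, and its difference from control was 1.25 (SE 0.74, adjusted p = 0.520) in resilient and 1.45 (SE 0.85, adjusted p = 0.933) in susceptible pools. Of 6 listed miRNA entries, 1 was called in any comparison, with 9.52%, 4.7% and 3.93% of 788 miRNAs called for resilient against control, susceptible against control and susceptible against resilient pools. That entry, 1 precursor of miR-124-3p, rested on 0 to 12 reads per pool and says nothing of miR-124 as a whole.

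**Figure D1:**
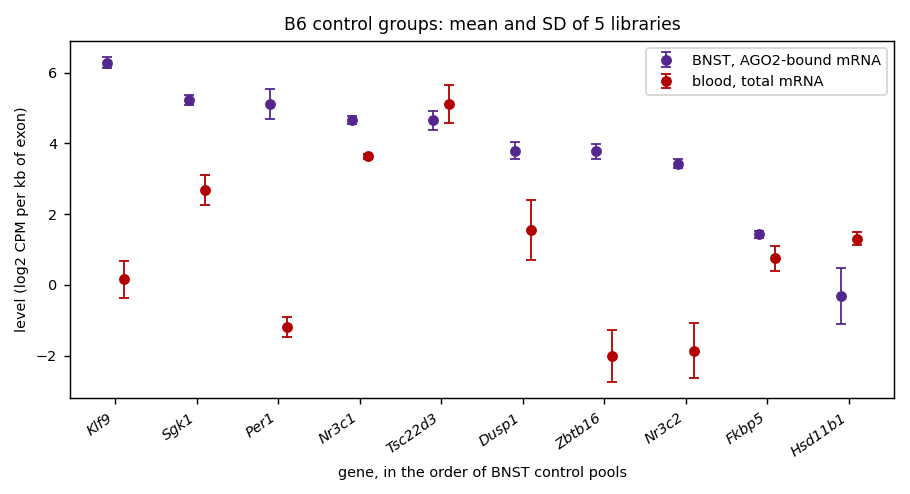
Mean level of each gene (y axis, log2 CPM per kilobase of exon) in the 5 B6 control pools of BNST and the 5 B6 control blood samples, with bars for 1 SD and genes on the x axis in BNST order. Klf9 led in BNST at 6.28 and Tsc22d3 in blood at 5.11, and the tables were normalized separately.

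Per kilobase of exon, the levels of the 10 genes spanned a wide range in control BNST. Klf9, a transcription factor of the Krüppel-like family, was highest at 6.28 ± 0.16 log2 CPM per kb (SD, n = 5). Sgk1, a serum- and glucocorticoid-regulated kinase (5.23 ± 0.14), and Per1, a repressor of the circadian clock (5.11 ± 0.44), followed and overlapped each other. Nr3c1 stood at 4.65 ± 0.11 and Tsc22d3, which encodes the anti-inflammatory protein GILZ, at 4.64 ± 0.27, and these overlapped too. Below them came Dusp1, a phosphatase of MAP kinases (3.79 ± 0.23), and Zbtb16, a zinc finger transcription factor (3.77 ± 0.22), which overlapped. Nr3c2 stood at 3.43 ± 0.13 and Fkbp5 at 1.43 ± 0.10, and neither overlapped its neighbours. Hsd11b1, whose enzyme regenerates active corticosterone from its inert keto form, was lowest at -0.32 ± 0.80 and rested on 7 to 28 reads per control pool.

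In the blood of B6 control mice the order was different. Tsc22d3 led at 5.11 ± 0.53 log2 CPM per kb (SD, n = 5), with no overlap with Nr3c1 at 3.63 ± 0.08, and Nr3c1 did not overlap Sgk1 at 2.67 ± 0.42. Dusp1 (1.55 ± 0.85), Hsd11b1 (1.30 ± 0.18) and Fkbp5 (0.74 ± 0.34) each overlapped the next gene in order, which after Fkbp5 was Klf9 (0.15 ± 0.51), and Sgk1 overlapped Dusp1. Klf9 did not overlap Per1, the next below it. Per1 (-1.20 ± 0.28), Nr3c2 (-1.86 ± 0.78) and Zbtb16 (-2.01 ± 0.73) were lowest, and over the 5 blood groups these 3 genes rested on 4 to 62 reads per mouse. Blood values hold total mRNA and BNST values AGO2-bound mRNA, so the tables show order within each tissue only.

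**Figure D2:**
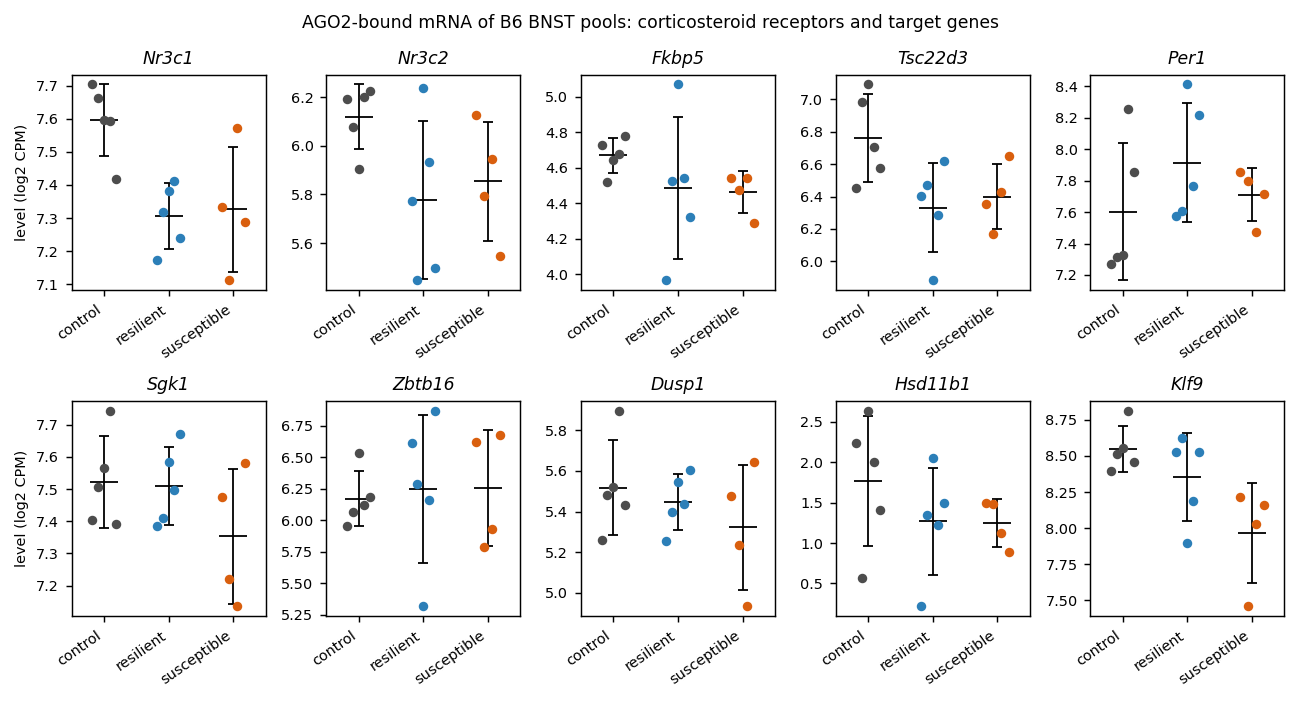
Level (y axis, log2 CPM) of each gene in every BNST pool, by group on the x axis, with the mean and SD as a bar. All 5 resilient pools lie below all control pools for Nr3c1, and all 4 susceptible pools lie below all control pools for Klf9. Groups did not overlap for 5.18% of all genes in the resilient and 10.9% in the susceptible comparison with control.

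In AGO2-bound mRNA, Nr3c1 was called lower in both stressed groups and Nr3c2 in resilient pools, at small fold changes. Of the 10 genes, 3 were called lower in resilient than in control pools (Nr3c1, Nr3c2 and Tsc22d3) and 0 higher. The study's criteria were used for a call, an unadjusted limma p below 0.05 with a change of 1.2-fold or more. In this comparison 17.7% of all genes were called and 9.04% were called lower. No member passed an adjusted p of 0.05, which 1.95% of all genes did. The median log2 fold change of the 10 genes was -0.19, beside -0.02 over all genes, and 8 of 10 were below 0. No input RNA of these pools is used here, and the total BNST RNA that the study sequenced from other mice was not analysed here, so a change in transcript level and a change in AGO2 binding cannot be told apart. Nor can fewer cells of a type and less RNA per cell.

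Nr3c1 (ENSMUSG00000024431) encodes the glucocorticoid receptor. Its level was 7.70, 7.66, 7.60, 7.59 and 7.42 log2 CPM in control pools 1 to 5, and 7.17, 7.32, 7.38, 7.41 and 7.24 in resilient pools 1 to 5. Susceptible pools 1 to 4 gave 7.33, 7.11, 7.57 and 7.29. All 5 resilient pools lay below the lowest control pool, though the closest values were 7.41 and 7.42, and 3 of 4 susceptible pools did so. Groups were apart in this way for 5.18% of all genes in the resilient and 10.9% in the susceptible comparison with control. The resilient minus control log2 difference was -0.29 (SE 0.09, adjusted p = 0.0966, 1.22-fold), and an exact two-sided permutation test gave p = 0.00794, the smallest that the design allows. The fold change fell under 1.2 without control pool 1 (-0.26) or without resilient pool 1 (-0.26). The susceptible minus control difference was -0.27 (SE 0.10, adjusted p = 0.121), with an exact permutation p of 0.0397. That call was lost without control pool 1 (-0.24) or 2 (-0.25), without susceptible pool 2 (-0.20) or 4 (-0.26), and with values rescaled to total reads (-0.20), quantile normalization (-0.24) or sample quality weights (-0.25).

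Nr3c2 (ENSMUSG00000031618, chr8:76899442-77245012 on GRCm38, plus strand) encodes the mineralocorticoid receptor, whose transcript holds the 2 miR-135a sites printed above. Its level was 6.19, 6.08, 5.90, 6.20 and 6.22 log2 CPM in control pools 1 to 5 and 5.77, 5.45, 6.24, 5.93 and 5.50 in resilient pools 1 to 5. Resilient pool 3 gave the highest value of all pools, and 3 of the 5 resilient pools lay below every control pool. The resilient minus control difference was -0.34 on the log2 scale (SE 0.14, adjusted p = 0.185), with an exact permutation p of 0.0952. The call was lost without control pool 1, 4 or 5 (-0.32 each), or without resilient pool 2 (-0.26) or 5 (-0.27). In susceptible pools 1 to 4 the level was 6.13, 5.79, 5.95 and 5.55, and the difference from control of -0.27 (SE 0.15, adjusted p = 0.324, exact permutation p = 0.0794) was not called. It was called with only the groups compared in the fit (-0.27) and without susceptible pool 1 (-0.36).

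Tsc22d3 (ENSMUSG00000031431, chrX:140539528-140600659, minus strand) was lower in both stressed groups. Control pools 1 to 5 gave 6.45, 6.99, 7.09, 6.71 and 6.58 log2 CPM, resilient pools 6.40, 6.47, 5.89, 6.28 and 6.62, and susceptible pools 1 to 4 gave 6.36, 6.17, 6.43 and 6.65. The groups overlapped, with 3 of 5 resilient and 3 of 4 susceptible pools below every control pool. The difference from control was -0.43 in resilient pools (SE 0.14, adjusted p = 0.112), with an exact permutation p of 0.0397, and it was called in every alternative fit and with each library left out. In susceptible pools it was -0.36 (SE 0.15, adjusted p = 0.184), with an exact permutation p of 0.0714. That call was lost without control pool 2 (-0.31) or 3 (-0.28), without susceptible pool 1 (-0.35) or 2 (-0.29), and after rescaling to total reads (-0.29). It was also lost with no mean-variance trend (-0.36).

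**Figure D3:**
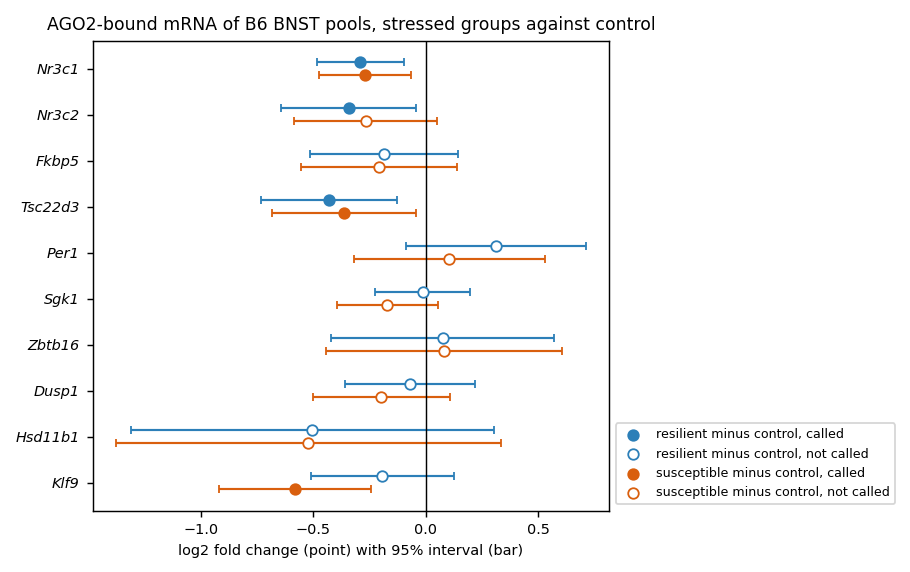
Log2 fold change (x axis) of each gene (y axis) in resilient and susceptible BNST pools against control, with bars for the 95% interval and filled points for called genes. In both stressed groups 8 of the 10 points lie below 0, and Per1 and Zbtb16 lie above it.

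Klf9 was the gene with the largest called decrease in susceptible pools. In the comparison of susceptible and control pools, 3 of the 10 genes were called lower (Nr3c1, Tsc22d3 and Klf9) and 0 higher, beside 18.9% of all genes called and 9.28% called lower. No member passed an adjusted p of 0.05, which 4.02% of all genes did. The median log2 fold change of the 10 genes was -0.24, beside -0.01 over all genes, and 8 of 10 were below 0. Both stressed groups were set against the same 5 control pools, so their fold changes are not independent.

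Klf9 (ENSMUSG00000033863, chr19:23141226-23168134, plus strand), with the promoter printed above, had levels of 8.40, 8.51, 8.56, 8.81 and 8.46 log2 CPM in control pools 1 to 5. Susceptible pools 1 to 4 gave 8.22, 7.46, 8.03 and 8.16, and resilient pools 1 to 5 gave 8.52, 8.63, 7.90, 8.19 and 8.53. All 4 susceptible pools lay below the lowest control pool, and resilient pools 3 and 4 did too. Susceptible and control pools did not overlap for 10.9% of all genes. The susceptible minus control difference was -0.58 (SE 0.16, adjusted p = 0.0513, 1.49-fold), with an exact permutation p of 0.00794, the smallest possible here. It was called in every alternative and ranged from -0.66 to -0.41 with 1 library left out. The resilient minus control difference was -0.19 (SE 0.15, adjusted p = 0.492). Klf9 was also the only one of the 10 called between susceptible and resilient pools, at -0.39 (SE 0.16, adjusted p = 1.00), where 2.14% of all genes were called, 1.19% were called lower and 0% passed an adjusted p of 0.05. The exact permutation p was 0.0952. This call was lost without susceptible pool 2 (-0.22), without resilient pool 1 (-0.34), 2 (-0.32) or 5 (-0.34), with quantile normalization (-0.30) and with no mean-variance trend (-0.39).

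The other members were not called in either stressed group. Fkbp5 ranged from 4.52 to 4.78 log2 CPM in control, 3.97 to 5.07 in resilient and 4.29 to 4.54 in susceptible pools. Its difference from control was -0.19 (SE 0.16, adjusted p = 0.523) in resilient and -0.21 (SE 0.17, adjusted p = 0.496) in susceptible pools, and the exact permutation p of the latter was 0.0317. Without resilient pool 3, which gave the highest value, the resilient difference was -0.33 and was called. Per1 ranged from 7.27 to 8.25 in control and 7.57 to 8.41 in resilient pools, with a difference of 0.31 (SE 0.19, adjusted p = 0.363) that was called without control pool 4 (0.47). Sgk1 differed by -0.01 (95% interval -0.23 to 0.20) in resilient and by -0.17 (-0.40 to 0.055) in susceptible pools. Dusp1 differed by -0.07 (-0.36 to 0.22) and -0.20 (-0.50 to 0.11), and Zbtb16 by 0.08 (-0.42 to 0.57) and 0.08 (-0.44 to 0.60), in the same order. Hsd11b1, with 4 to 44 reads per pool, differed by -0.50 (-1.31 to 0.30) and -0.52 (-1.38 to 0.33), and both were called without control pool 2 (-0.80 and -0.82).

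Other genes of the pathway are given by their counts, to be read against the 9.04% of all genes called lower in resilient and 9.28% in susceptible pools. Among 21 measured further glucocorticoid targets, 4 were called lower and 0 higher in resilient pools. In susceptible pools 6 were called lower and 0 higher, 3 of them with an adjusted p under 0.05. Those with the smallest p in susceptible pools were the metallothioneins Mt2 (-0.55, adjusted p = 0.0210) and Mt1 (-0.57, adjusted p = 0.0458), which bind zinc and copper, and Errfi1 (-0.46, adjusted p = 0.0380), a brake on the EGF receptor. Mt2 (-0.34) and Errfi1 (-0.33) were also called in resilient pools, with adjusted p of 0.109 and 0.115. The median log2 fold change of the list was -0.17 in resilient and -0.14 in susceptible pools. Of 16 receptor chaperones and coregulators, 1 was called lower in resilient pools (Bag1, -0.41, adjusted p = 0.123) and 5 in susceptible pools. The heat shock proteins Hsp90ab1 (-0.35, adjusted p = 0.0503) and Hsp90aa1 (-0.30, adjusted p = 0.0823), which hold the receptor ready for hormone, and the acetyltransferase Crebbp (-0.31, adjusted p = 0.1001) led these 5. The list medians were -0.05 and -0.13.

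Calls of clock genes are read against the 17.7% of all genes called in either direction in resilient and 18.9% in susceptible pools. Of 16 clock genes, Arntl, the activator of the clock, was called higher (0.26, adjusted p = 0.157) and Dbp, an output gene, lower (-0.27, adjusted p = 0.185) in resilient pools. In susceptible pools Hlf (-0.31, adjusted p = 0.1001) and Npas2 (-0.52, adjusted p = 0.134) were called lower. Of 12 immediate early genes, which respond within minutes to neuronal activity, 0 were called in resilient and 5 were called lower in susceptible pools, led by Egr4 (-1.78, adjusted p = 0.0906), Fosb (-1.16, adjusted p = 0.115) and Egr1 (-0.83, adjusted p = 0.188). Of 4 measured genes of corticosteroid metabolism and transport, 0 were called in resilient pools and Srd5a1, a steroid reductase, was called lower in susceptible pools (-0.40, adjusted p = 0.197). Between susceptible and resilient pools 0 genes of these 5 lists were called, where 2.14% of all genes were.

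Across the 14 BNST pools, the genes whose log2 CPM followed each receptor most closely were named by Pearson's r, as a description. For Nr3c1 they were Amigo2 (r = 0.90), March6 (0.89) and Epm2aip1 (0.88), and for Nr3c2 they were Nlgn1 (0.97), Gpr26 (0.96) and Syt10 (0.96). For Fkbp5 they were B3galnt1 (0.89), Thap1 (0.89) and Kcna5 (0.88), and for Tsc22d3 Zdhhc9 (0.90), Bri3bp (0.89) and Glrx (0.89). All points share the same libraries and their depth and cell makeup.

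**Figure D4:**
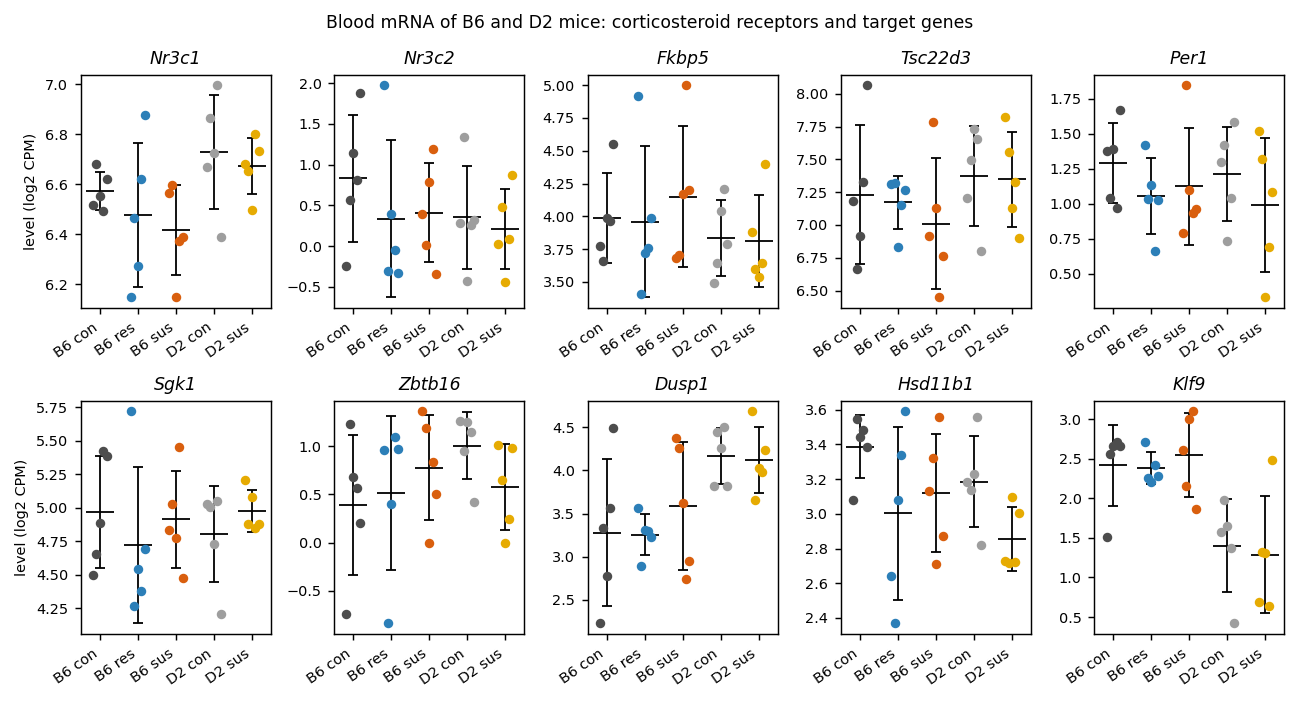
Level (y axis, log2 CPM) of each gene in the blood of every mouse, by strain and group on the x axis (con, control; res, resilient; sus, susceptible), with the mean and SD as a bar. Klf9 is higher and Dusp1 lower in B6 than in D2 controls, and the stressed groups overlap their controls for every gene.

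In blood, 0 of the 10 genes were called in B6 resilient against control, B6 susceptible against control, B6 susceptible against resilient or D2 susceptible against control mice, where 2.11%, 4.5%, 2.03% and 1.57% of all genes were called. In D2 mice the genes called numbered 206 by label, 890 with groups by sample name and 519 without both doubtful mice, and 0 of the 10 genes were among them in each case. Nor was any called for the difference between B6 and D2 in the susceptible minus control effect, where 5.37% of all genes were called. Nr3c1 spanned 6.49 to 6.68 log2 CPM in B6 control, 6.15 to 6.88 in B6 resilient and 6.15 to 6.60 in B6 susceptible mice. D2 control mice gave 6.39 to 7.00 and D2 susceptible mice 6.50 to 6.80. The susceptible minus control difference of Nr3c1 was -0.16 in B6 (95% interval -0.42 to 0.11) and -0.06 in D2 (-0.32 to 0.21), so a fall of the size seen in BNST lies inside both intervals. The D2 difference of Nr3c1 was 0.03 with groups by sample name and -0.02 without both doubtful mice. Fkbp5 spanned 3.41 to 5.00 and Tsc22d3 6.45 to 8.07 log2 CPM over all 25 mice, and every stressed group overlapped its controls. Of the blood cell markers, 3 of 4 for platelets were called higher in B6 susceptible than in B6 control mice and 0 of the other lists, and in B6 resilient and D2 susceptible mice 0 were called.

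Among the comparisons of stressed blood groups, Hsd11b1 came closest to a call. Its level in B6 control mice 1 to 5 was 3.08, 3.55, 3.44, 3.48 and 3.39 log2 CPM, and in B6 resilient mice 2.64, 2.37, 3.08, 3.34 and 3.59. The resilient minus control difference was -0.38 (SE 0.20, adjusted p = 0.985), with an exact permutation p of 0.159. It was called with quantile normalization (-0.39) and without control mouse 1 (-0.46) or resilient mouse 4 (-0.47) or 5 (-0.53). Within the 2 name prefixes of the B6 mice, whose meaning the labels do not give, it was -0.62 and 0.03. The B6 susceptible minus control difference was -0.27 (SE 0.20, adjusted p = 0.980). In D2 mice the control values were 3.19, 3.14, 3.23, 3.56 and 2.82, and the susceptible values 2.73, 2.71, 3.10, 2.72 and 3.00. By label that difference was -0.33 (SE 0.20, adjusted p = 0.999), with an exact permutation p of 0.0476 and 3 of 5 susceptible mice below every control. With groups by sample name, the mouse at 2.71 is a control. No susceptible mouse then lies below every control, and the permutation test was not run for those groups. The D2 difference was -0.16 with groups by sample name and -0.31 without both doubtful mice. By label it was called with sample quality weights (-0.44) and without D2 control mouse 5 (-0.42).

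Between the controls of the 2 strains, Klf9 was called higher and Dusp1 lower in B6 than in D2, 2 of the 10 genes beside 26.4% of all genes. Klf9 was 1.51, 2.56, 2.66, 2.72 and 2.66 log2 CPM in B6 control mice 1 to 5 and 1.58, 1.98, 1.66, 1.37 and 0.42 in D2 control mice 1 to 5. B6 mice 2 to 5 lay above every D2 mouse, and B6 mouse 1 lay among them. The difference was 1.02 (SE 0.33, adjusted p = 0.0344, 2.03-fold), with an exact permutation p of 0.0317, and Klf9 was the 1 member past an adjusted p of 0.05, which 15.5% of all genes passed. It was 1.15 with groups by sample name, 1.16 without both doubtful mice, and 0.85 and no longer called after rescaling to total reads.

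Dusp1 (ENSMUSG00000024190, chr17:26505590-26562128, minus strand), whose promoter holds the cAMP element and E-box printed above, was 2.23, 3.34, 2.78, 3.56 and 4.49 log2 CPM in B6 control mice 1 to 5. D2 control mice 1 to 5 gave 3.82, 4.44, 4.26, 4.50 and 3.82. B6 mice 1 to 4 lay below every D2 mouse, and B6 mouse 5 lay near the top of the D2 range. The difference was -0.89 (SE 0.33, adjusted p = 0.0693, 1.85-fold), with an exact permutation p of 0.0556. It was -0.73 with groups by sample name, -0.82 without both doubtful mice, and -0.63 and no longer called without B6 control mouse 1. Zbtb16 differed by -0.62 (SE 0.37, adjusted p = 0.309), by -0.55 with groups by sample name and by -0.63 without both doubtful mice, and was called with sample quality weights (-0.78) and without B6 control mouse 2 (-0.83). By label, the other 7 members differed by -0.16 to 0.48, with none called. The name prefixes of the mice are nested in the strains, so prefix and strain cannot be told apart. Reads of both strains were aligned to the same genome, GRCm38, and the part of this in the strain differences was not tested.

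Lists of blood cell markers and pathway genes are read here against the 26.4% of all genes called between strains. All 5 B cell markers were called higher in B6 than in D2 controls (404.4 to 786.8 CPM summed in D2, 641.7 to 903.7 in B6), and of the lower ones 2 of 5 were monocyte, 2 of 6 neutrophil, 2 of 5 T cell and 2 of 4 platelet markers. The monocyte markers summed to 394.4 to 649.6 CPM in B6 and 774.6 to 1470 in D2 controls, the neutrophil markers to 1100 to 3012 and 1417 to 3059, the T cell markers to 95.3 to 127.7 and 123.5 to 174.3, and the platelet markers to 1408 to 5340 and 3292 to 12737. Of the higher ones 1 of 4 was an NK cell and 2 of 6 were erythroid markers. The part of these cell types in the differences of Klf9 and Dusp1 was not tested. Among the 16 chaperones and coregulators 4 were called higher and 1 lower in B6, led by Hspa8 (0.94, adjusted p = 0.000928), Hsp90ab1 (0.70, adjusted p = 0.00188) and Ncoa1 (-0.48, adjusted p = 0.0726). Of 21 further glucocorticoid targets 4 were called higher and 1 lower, the lowest p being that of Cebpd, a transcription factor of myeloid cells (-1.01, adjusted p = 0.0211), followed by Il7r (0.47, adjusted p = 0.0693) and Mt2 (2.67, adjusted p = 0.109). Of 3 genes of corticosteroid metabolism 1 was called higher (Abcb1a, 0.48) and 1 lower (H6pd, -0.60), of 14 clock genes 1 was called higher (Bhlhe41, 1.06), and of 6 immediate early genes 1 was called lower (Junb, -0.65).

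In the stressed blood groups, by label, the same 5 lists are read against the share of all genes called. That share was 2.11% in B6 resilient, 4.5% in B6 susceptible and 1.57% in D2 susceptible mice against control. In B6 resilient mice 1 gene of the 5 lists was called, Il7r, the receptor of interleukin-7, which was lower. In B6 susceptible mice the coactivator Ncoa1 was called higher (0.47) and Nfkbia, the inhibitor of NF-kappaB, lower (-0.39), and in D2 susceptible mice Ncoa1 was called lower (-0.49) and the chaperone Ptges3 higher (0.30). Ncoa1 was also the 1 gene of the lists called for the difference between strains in this effect (0.96, adjusted p = 0.918), beside 5.37% of all genes. Across the 25 mice, the genes that followed Nr3c1 most closely were Gm4759 (r = 0.91), Brd2 (0.90) and Cd53 (0.89), and for Tsc22d3 they were Ahsa2 (0.74), Bmt2 (0.72) and Gm26532 (0.72). For Fkbp5 they were Cracr2a (0.85), Numa1 (0.83) and Eepd1 (0.83), and for Nr3c2, measured near its floor, Lmo7 (0.83), Pld1 (0.79) and Fndc3b (0.79).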

How the data were processed

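AGO2-bound mRNA and miRNA of BNST pools and total mRNA of blood were measured by sequencing. The authors aligned mRNA reads with STAR to GRCm38, counted them per gene with HTSeq, kept genes with at least 1 CPM in 6 blood or 3 AGO2 samples, and deposited log2 CPM from voom, with 0.5 reads added to each count. miRNA reads were quantified by the authors with miRDeep2 and bowtie 1.1.1. The deposited log2 values do not carry the authors' later corrections, for cohort in AGO2-bound mRNA and for surrogate variables in AGO2-bound miRNA. Whole reads were recovered from the log2 values (tolerance 1e-04) to give depths.

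Here, all groups of a table were fitted in 1 model with limma 3.58.1 in R 4.3.3, with a mean-variance trend and Benjamini-Hochberg adjustment over all genes of the table. Single genes were also compared by two-sided exact permutation tests, 80 in all, whose smallest possible p was 0.00794. Blood group labels were taken as deposited. The scripts were tested on simulated data. Alternatives were no trend, voom precision weights, sample quality weights, rescaling to total reads, quantile normalization, a pseudocount of 2, a mean of at least 2 log2 CPM, only the groups compared, the mouse name prefix, the replicate block and leaving out each library. The members, gene lists and tests were chosen with earlier results of these data known. Named pathway genes were at most the 3 with the smallest p among those called in each list. Replicates were separate pools or mice. Blood miRNA was not used here, and 1 marker gene and the sum that holds it are not reported here.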

Additional observations from a re-analysis of the deposited data

Results flagged for a closer look

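Of 80 sets of values, each 1 gene in 1 group, 1 held a sample far from the others. Klf9 in the blood of B6 control mouse 1 was 1.51 log2 CPM, while the other 4 B6 control mice lay between 2.56 and 2.72. The gap was 0.872 of the range of the group. Chance alone sets apart about 1 in 20 such sets. The cause was not tested.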

How the results depend on the processing

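Of the values for named genes under alternatives other than leaving out a library, 231 kept their direction and their side of the threshold, 10 lost and 4 gained a call, and 0 changed sign. The number of the 10 genes called in susceptible against control pools fell from 3 to 1 with rescaling to total reads. In susceptible against resilient pools it went from 1 to 0 with no trend, with quantile normalization and with the replicate block. In blood it went from 0 to 1 for B6 resilient mice with quantile normalization, from 0 to 1 for D2 susceptible mice with quality weights, and from 2 to 1 between strains with rescaling. The listed miRNAs called went from 1 to 2 with quality weights and to 0 with a mean of at least 2 log2 CPM. With 1 library left out, the genes called ranged from 1 to 4 in resilient and from 1 to 3 in susceptible pools against control, from 0 to 1 between them, from 0 to 2 in B6 resilient mice, from 0 to 1 in B6 susceptible against resilient mice, from 0 to 1 in D2 mice, from 1 to 3 between strains, and from 1 to 2 for miRNAs.

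Uncalled log2 differences that changed sign with a library left out were Sgk1 (-0.054 to 0.042), Zbtb16 (-0.079 to 0.31) and Dusp1 (-0.13 to 0.025) in resilient pools, and Zbtb16 (-0.061 to 0.24) in susceptible pools. BNST pools of the same replicate number showed little correlation around their group means: of 13 such pairs 2 correlated above 0.1 (r from -0.17 to 0.14). The labels do not give the cohorts of the pools, so this cannot exclude that some pools shared one. With the replicate block, Tsc22d3 in susceptible pools (-0.35) and Klf9 between stressed groups (-0.38) lost their calls.

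Over all genes, quality weights moved the calls in D2 mice from 206 to 992, in B6 resilient mice from 276 to 508, in B6 susceptible mice from 589 to 333 and in miRNAs of susceptible against resilient pools from 31 to 56. Rescaling gave 146 and 266 in the same B6 groups, 102 in place of 266 for B6 susceptible against resilient mice, and 455 in place of 703 for the difference between strains in the effect. With a mean of at least 2 log2 CPM, which tests fewer genes, the calls were 114, 384, 114 and 118 in B6 resilient, B6 susceptible, B6 susceptible against resilient and D2 mice, and 219 in place of 355 in susceptible against resilient pools. With only the groups compared they were 121 for B6 susceptible against resilient and 341 for D2 mice. For the difference between strains in the effect they were 1321 with groups by sample name and 1070 without both doubtful mice. Rescaling moved the share of called genes that were higher from 51.0% to 71.4% and from 44.5% to 77.1% in susceptible pools against control and resilient pools. In blood it moved it from 40.2% to 14.4% in B6 resilient, from 66.2% to 54.1% in B6 susceptible, from 55.3% to 75.5% in B6 susceptible against resilient mice and from 43.3% to 25.3% between strains. The median log2 difference of all genes moved to -0.16, -0.13 and -0.18 in B6 resilient mice, B6 susceptible mice and between strains. Depth limits Hsd11b1 in BNST and Nr3c2, Per1 and Zbtb16 in blood. A fit with name prefix could not be made between strains.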
